A study of Mus musculus with 6 samples.

Results

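The Pramel, Obox and Oosp genes of the mouse were examined in embryonic stem (ES) cells that lack the heterochromatin proteins HP1α (Cbx5) and HP1β (Cbx1). Members were all gene rows whose symbol is Pramel, Obox or Oosp followed by a number, and 42 of 24467 gene rows met this rule: 33 Pramel, 6 Obox and 3 Oosp genes. The 20 members with 10 or more reads in at least 2 libraries are described by name: 19 Pramel genes and Obox6. RNA was sequenced from 2 double knockout (DKO) clones, both deleted for HP1α and HP1β, and from 1 control clone, called Hp1α/β F/F in the sample titles and given a WT genotype, with 2 libraries per clone. All cells were untreated and grown with knockout serum replacement, LIF and inhibitors of GSK3β and MEK1 (3 µM CHIR99021 and 0.8 µM PD184352). Each line is 1 clone, and because the control is a single clone, effects of genotype and of clone cannot be told apart. How the alleles were deleted is not given in the sources used here.

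PRAME-like (Pramel) proteins are built of leucine-rich repeats, and the mouse genome holds many copies of their genes in clusters, most of them expressed in germ cells or the early embryo. Pramel6 and Pramel7 are known from the inner cell mass and from ES cells in the naive state, where Pramel7 joins a Cullin-2 ubiquitin ligase and promotes loss of UHRF1, the protein that brings the maintenance DNA methyltransferase to replicated DNA. Obox proteins are homeobox transcription factors of the oocyte and early embryo that take part in switching on the zygotic genome, and Oosp proteins are secreted by the oocyte.

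The libraries held 24628872 to 27876620 reads assigned to genes in the DKO clones and 32327537 and 34641560 in the control. As a check of the labels, Cbx5 averaged 198 ± 6.58 CPM (counts scaled to the library total) in DKO cells and 811 ± 2.96 CPM in the control, and Cbx1 averaged 45.7 ± 2.44 CPM in DKO cells and 225 ± 2.88 CPM in the control (SD, n = 4 and 2). All 12 ES cell markers on a fixed list were expressed, and their summed level was 4370 to 4590 CPM in DKO libraries and 4100 to 4300 CPM in the control. Nothing in the labels ties the replicates to separate cultures, so p-values measure only the spread among these libraries, which may be technical.

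The promoters of Pramel7, Pramel14 and Pramel30 are shown because they share long exact stretches within the 250 bases before their starts. Pramel7 lies on chromosome 2, and Pramel14 and Pramel30 lie in the same cluster on chromosome 4. Each window runs from 250 bases before to 50 bases after the gene start, 5′ to 3′ on the gene's strand, from RefSeq on GRCm38.p6. Capitals mark the 3 runs of at least 15 bases that all of these promoters hold in identical form. The windows are chr2:87492369-87492668 (minus strand) for Pramel7, chr4:143994320-143994619 (minus strand) for Pramel14 and chr4:144329999-144330298 (plus strand) for Pramel30.
Pramel7: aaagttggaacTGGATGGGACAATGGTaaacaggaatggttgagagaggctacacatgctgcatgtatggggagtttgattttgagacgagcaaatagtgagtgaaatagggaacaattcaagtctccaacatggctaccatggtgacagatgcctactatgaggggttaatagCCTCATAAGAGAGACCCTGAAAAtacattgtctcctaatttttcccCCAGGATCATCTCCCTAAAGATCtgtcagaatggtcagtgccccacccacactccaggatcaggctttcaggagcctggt
Pramel14: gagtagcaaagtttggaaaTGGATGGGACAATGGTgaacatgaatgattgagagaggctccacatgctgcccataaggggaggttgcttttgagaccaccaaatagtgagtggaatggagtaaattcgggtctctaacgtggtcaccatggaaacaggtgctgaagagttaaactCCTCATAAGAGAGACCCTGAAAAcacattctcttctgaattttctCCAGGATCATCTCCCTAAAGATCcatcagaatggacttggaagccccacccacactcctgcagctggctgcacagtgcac
Pramel30: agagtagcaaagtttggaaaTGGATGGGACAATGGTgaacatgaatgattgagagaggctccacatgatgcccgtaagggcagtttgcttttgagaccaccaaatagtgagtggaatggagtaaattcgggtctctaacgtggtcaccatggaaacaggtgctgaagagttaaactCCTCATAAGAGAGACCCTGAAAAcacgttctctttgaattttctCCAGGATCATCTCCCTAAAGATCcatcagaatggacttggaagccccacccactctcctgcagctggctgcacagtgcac

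The runs are 16, 23 and 23 bases long and add up to 62 bases, and each was found in 3 of 32851 RefSeq promoter windows, those of these genes. Over the aligned bases the Pramel14 and Pramel30 windows were 98.0% identical, Pramel7 and Pramel14 83.9%, and Pramel7 and Pramel30 82.5%. The promoters of Pramel6, the neighbour of Pramel7 (chr2:87506315-87506614, plus strand), and of Pramel13, at the end of the chromosome 4 cluster (chr4:144408415-144408714, minus strand), hold none of these runs and are printed in lower case for comparison.
Pramel6: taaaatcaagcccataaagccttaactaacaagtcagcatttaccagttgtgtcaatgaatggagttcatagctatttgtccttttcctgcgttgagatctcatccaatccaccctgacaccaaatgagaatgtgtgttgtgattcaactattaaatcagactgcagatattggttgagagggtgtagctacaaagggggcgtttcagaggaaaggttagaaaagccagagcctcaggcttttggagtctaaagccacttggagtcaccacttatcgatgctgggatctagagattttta
Pramel13: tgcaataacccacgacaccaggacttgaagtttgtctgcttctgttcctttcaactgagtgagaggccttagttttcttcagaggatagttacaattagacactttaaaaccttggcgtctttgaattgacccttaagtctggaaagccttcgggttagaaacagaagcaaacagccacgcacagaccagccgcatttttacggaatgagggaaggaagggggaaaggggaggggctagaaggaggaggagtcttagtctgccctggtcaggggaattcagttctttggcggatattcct

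The members differed widely in level. No read was counted in any library for 12 of the 42 members, among them all 3 Oosp genes, so that any Oosp RNA lay under the limit that a count of 0 allows, 3 reads or 0.0866 to 0.122 CPM per library, which covers counting error only. Another 10 members had reads but too few to be described. Per kilobase of the deposited gene width, averaged over the 6 libraries, Pramel7 was the most abundant member at 21.4 RPKM, followed by Pramel6 at 18.0 RPKM, Obox6 at 15.8 RPKM and Pramel12 at 6.56 RPKM. The order of the first 3 differed between the clones: in DKO clone 2 Obox6 averaged 18.6, Pramel6 18.3 and Pramel7 15.4 RPKM, in DKO clone 1 Pramel7 averaged 17.7, Pramel6 14.7 and Obox6 12.4 RPKM, and in the control Pramel7 averaged 31.2, Pramel6 20.9 and Obox6 16.4 RPKM. The order continued with Pramel19 at 3.08 RPKM and Pramel13 at 2.32 RPKM, and the lowest described member per length, Pramel42, averaged 0.05 RPKM. Its deposited width of 5797 bases exceeds its longest GENCODE transcript of 2048 bases, so its rank depends on the width used. At the edge of the rule, Pramel42 had 11, 8, 5 and 8 reads in the DKO libraries and 17 and 2 in the control, and Pramel47, just outside it, had 0, 4, 0 and 0 reads in DKO and 8 and 2 in the control.

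Summed over its 33 members, Pramel RNA in DKO cells was a little over 1/2 of the control level. The sum was 116 and 117 CPM in DKO clone 1 and 116 and 118 CPM in DKO clone 2, against 203 and 200 CPM in the control. The libraries of both DKO clones lay within about 2 CPM of each other and far below the control, and the DKO mean was 0.580 times the control mean. Without Pramel7, the most abundant member over all 6 libraries, the ratio was 0.604. The Obox sum was nearly all Obox6, at 17.9 and 15.5 CPM in DKO clone 1, 24.3 and 26.0 CPM in DKO clone 2, and 24.0 and 20.3 CPM in the control. For Obox the DKO clones thus fell on both sides of the control, and the other 5 Obox genes together had 0 to 5 reads in a DKO library and 4 and 6 in the control libraries. In bulk RNA of this kind, fewer cells of a type and less RNA per cell cannot be told apart.

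**Figure D1:**
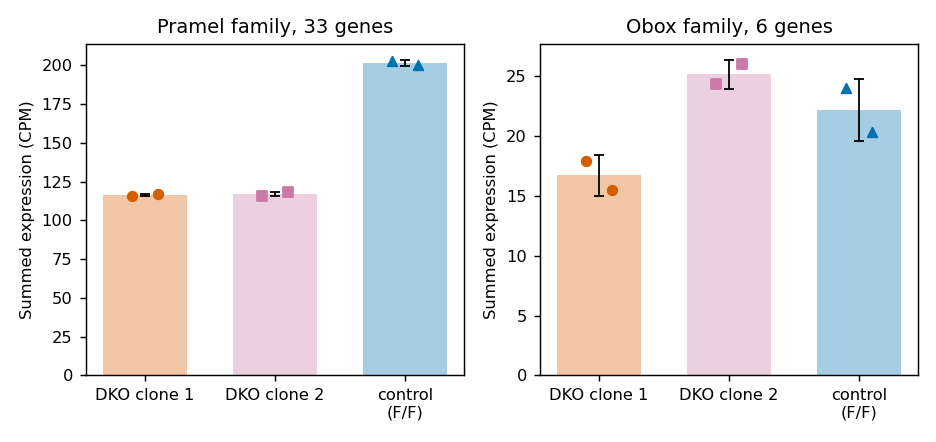
Summed CPM of the Pramel and Obox families (y axis, from 0) in DKO clone 1, DKO clone 2 and the control; points are libraries, bars are means of 2 libraries and error bars are 1 SD. All 4 DKO libraries sit at 116 to 118 CPM for Pramel, below the control libraries at 200 and 203 CPM, while for Obox both clone 1 libraries sit below and both clone 2 libraries above the control libraries.

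Of the 20 described members, 14 fell in DKO cells, none rose and 6 did not pass the test (edgeR quasi-likelihood test, 4 DKO against 2 control libraries, Benjamini-Hochberg adjusted p under 0.05). At an unadjusted p under 0.05, 17 fell and 0 rose, and none rose with DESeq2 or limma-voom. The background was 3.62% of 14771 genes tested that fell and 5.06% that rose. The median log2 change over the 20 members was -1.29, against 0.00038 over all genes tested, and 19 of the 20 values were below 0. In 17 members all 4 DKO libraries lay below both control libraries in CPM, as they did for 16.9% of all genes tested; Obox6, Pramel17 and Pramel42 were the exceptions. A group-wise filter on low counts, which asks for 2 libraries, let 2 members, Pramel1 and Pramel11, through with no DKO library over it. Pramel3 and Pramel21 had 1 DKO library over it, so they too passed only because both control libraries did. Of the 15 members with at least 2 DKO libraries over the filter 12 fell. The control libraries carry much of this count: without control replicate 1, 3 members were called (Pramel7, Pramel24 and Pramel50), and without control replicate 2, 4 members (Pramel7, Pramel19, Pramel24 and Pramel30), while the calls over all genes were 243 and 316 in place of 1283. These fits assume that the lone control library varies like the DKO libraries. Below, the range of adjusted p over the alternative fits follows each value, and its upper end was reached without 1 of the control libraries for every called member.

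**Figure D2:**
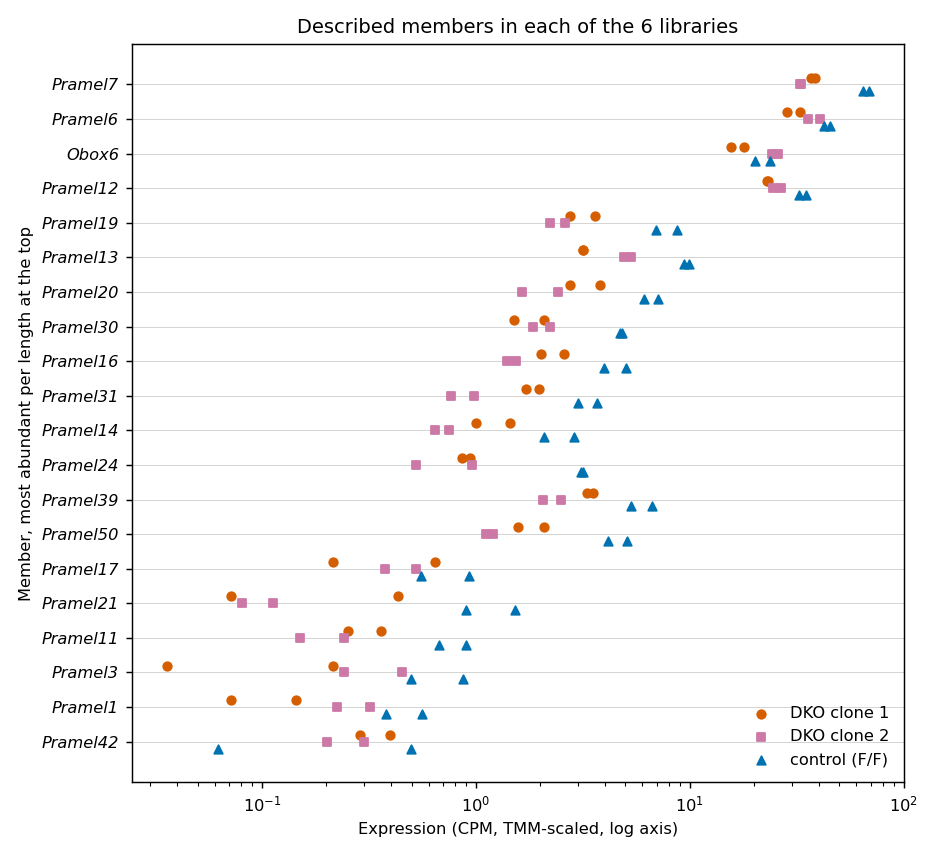
CPM of the described members (x axis, log scale) by name (y axis) in DKO clone 1, DKO clone 2 and the control; each point is 1 library. Pramel7 sits at 32.8 to 38.6 CPM in DKO libraries and at 64.2 and 68.9 CPM in the control, and all members except Obox6, Pramel17 and Pramel42 have every DKO point below both control points.

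Pramel7 (chromosome 2, 87489088 to 87492418), the UHRF1-linked member, had 37.0 and 38.6 CPM in DKO clone 1 and 33.0 and 32.8 CPM in DKO clone 2, against 68.9 and 64.2 CPM in the control. All DKO libraries were close to 1/2 of the control, and the groups did not overlap. Pramel7 fell by 0.91 on the log2 scale (SE 0.0899, adjusted p = 7.7e-04, 5.4e-15 to 0.0308 over 14 alternatives), to 53.1% of the control. Pramel6 (87506565 to 87510865), its neighbour on the opposite strand and likewise a gene of the inner cell mass, had 28.4 and 32.7 CPM in DKO clone 1 and 35.6 and 40.7 CPM in DKO clone 2, against 45.0 and 42.2 CPM in the control. Here too every DKO library was lower, but the highest came within 2 CPM of the control. The log2 change of Pramel6 was -0.34 (SE 0.125) and did not pass the test (adjusted p = 0.126, 0.0363 to 0.463 over the alternatives); it passed without replicate 2 of DKO clone 2, at -0.43. Clone 1 alone was lower than the control for Pramel6 (log2 change -0.51, adjusted p = 0.00355), and clone 2 was not called (-0.19, adjusted p = 0.225). The difference between the clones did not pass (0.32, adjusted p = 0.0835).

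The levels of these neighbours relative to each other also differed between groups. The ratio of Pramel7 to Pramel6 in RPKM was 1.27 and 1.15 in DKO clone 1 and 0.905 and 0.786 in DKO clone 2, against 1.49 and 1.48 in the control. Pramel7 was the higher of the pair in the control and clone 1, and Pramel6 the higher in clone 2, with no overlap between the clones. This ratio was chosen with the values in view and was not tested.

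**Figure D3:**
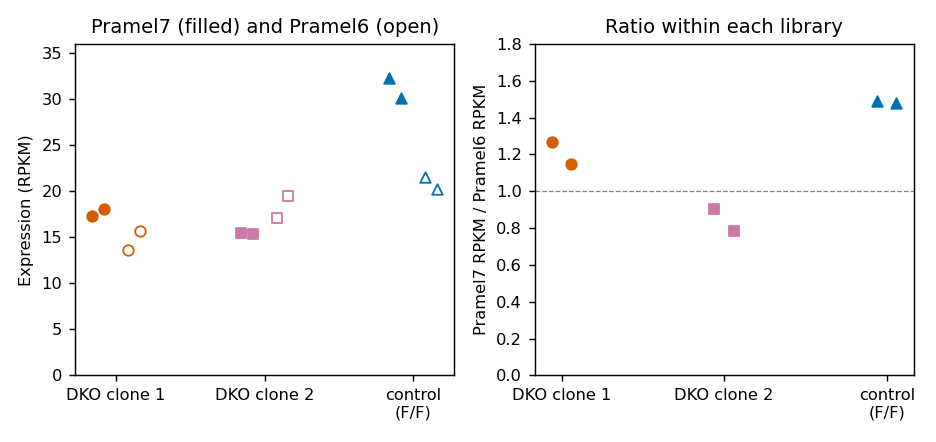
RPKM of Pramel7 and Pramel6 and their ratio (y axes) by library, for DKO clone 1, DKO clone 2 and the control; each point is 1 library. The ratio is 1.27 and 1.15 in clone 1, 0.905 and 0.786 in clone 2 and 1.49 and 1.48 in the control.

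At the level of RNA, genes known to act with Pramel7 did not pass the test. Protein levels, on which the ligase acts, were not measured here. Of 8 genes of the Cullin-2 ligase and the UHRF1 pathway, none was called in either direction by the edgeR test, by DESeq2, by limma-voom or with any 1 library left out. At an unadjusted p under 0.05, 1 of them fell and 0 rose, and their median log2 change was -0.0438. Uhrf1 itself averaged 767 ± 44.6 CPM in DKO cells and 715 ± 12.2 CPM in the control (SD, n = 4 and 2; log2 change 0.10, adjusted p = 0.423).

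Obox6 (chromosome 7, 15833250 to 15839679) is a homeobox gene reported to help reprogramming of mouse fibroblasts to pluripotency. It had 17.9 and 15.5 CPM in DKO clone 1 and 24.1 and 25.8 CPM in DKO clone 2, against 23.8 and 20.2 CPM in the control. Both clone 1 libraries lay below the control libraries and both clone 2 libraries above them, so the DKO mean pooled values from both sides. By the edgeR test against the control, clone 1 fell (log2 change -0.4, adjusted p = 0.0357). Clone 2 was not called (0.18, adjusted p = 0.329). Over all DKO libraries the log2 change was -0.08 (SE 0.186, adjusted p = 0.845), and it turned to 0.04 without replicate 2 of clone 1 or without control replicate 1. Clone 2 exceeded clone 1 by 0.58 on the log2 scale (adjusted p = 0.0118, 1.5e-04 to 0.112 over the alternatives), a call that ended with replicate 2 of clone 1 or either replicate of clone 2 left out.

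Pramel12 and Pramel13 stand near opposite ends of the chromosome 4 cluster and, like Pramel6, share no stretch of 50 bases with another annotated transcript, so their reads can be placed with little doubt. Pramel12 (143412155 to 143421091) had 23.3 and 22.9 CPM in DKO clone 1 and 26.6 and 24.5 CPM in DKO clone 2, against 32.3 and 35.0 CPM in the control. The shift was small and held in every library. Pramel12 fell by 0.47 on the log2 scale (SE 0.0933, adjusted p = 0.0116, 7.1e-04 to 0.142), to 72.3% of the control. Pramel13 (144391674 to 144408467), also named Pramef12 and known from spermatogonia of the mouse testis, had 3.16 and 3.16 CPM in DKO clone 1 and 4.90 and 5.32 CPM in DKO clone 2, against 9.92 and 9.41 CPM in the control. No library of 1 group reached the range of another. It fell by 1.23 on the log2 scale (SE 0.215, adjusted p = 0.00620, 6.5e-06 to 0.0942). The calls of Pramel12 and Pramel13 ended with either control library left out. Clone 2 was higher than clone 1 by 0.69 for Pramel13 (adjusted p = 0.0286, 0.00745 to 0.180), a call that ended with any 1 of the 4 DKO libraries left out.

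Within the same cluster, which spans 143394441 to 144408467 on chromosome 4, 10 of 11 described members fell, Pramel1 being the other. The 20 cluster members together had 39.8 and 36.9 CPM in DKO clone 1 and 40.5 and 38.1 CPM in DKO clone 2, against 69.0 and 72.4 CPM in the control, which puts DKO at 54.9% of the control. Individual roles of the next members are not well known. Pramel24 (143719451 to 143729158) had 0.861 and 0.934 CPM in DKO clone 1 and 0.963 and 0.525 CPM in DKO clone 2, against 3.11 and 3.16 CPM in the control. Its DKO libraries were all near or under 1/3 of the control, and its log2 change of -1.93 (SE 0.266, adjusted p = 0.00198, 2.6e-06 to 0.0411) was called in every alternative. Pramel30 had 2.08 and 1.51 CPM in DKO clone 1 and 2.21 and 1.84 CPM in DKO clone 2, against 4.80 and 4.74 CPM in the control (log2 change -1.32, SE 0.199, adjusted p = 0.00294, 1.7e-05 to 0.0575, not called without control replicate 1). Pramel14, which shares the capital runs above with Pramel30 and Pramel7, had 1.00 and 1.44 CPM in DKO clone 1 and 0.642 and 0.750 CPM in DKO clone 2, against 2.07 and 2.88 CPM in the control. Its log2 change was -1.35 (SE 0.324, adjusted p = 0.0280, 0.00819 to 0.263), and the call ended with either control library or either clone 2 library left out. The 3 genes with the shared promoter runs thus all fell, as did 11 of the other 17 described members.

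The same direction was called in Pramel20, Pramel16 and Pramel31 of the cluster. Pramel20 had 3.80 and 2.76 CPM in DKO clone 1 and 2.41 and 1.65 CPM in DKO clone 2, against 7.10 and 6.10 CPM in the control (log2 change -1.31, SE 0.258, adjusted p = 0.0112, 1.1e-04 to 0.149). Pramel16 had 2.58 and 2.01 CPM in DKO clone 1 and 1.40 and 1.54 CPM in DKO clone 2, against 3.96 and 5.02 CPM in the control (log2 change -1.24, SE 0.251, adjusted p = 0.0126, 6.5e-04 to 0.169). In both genes every DKO library lay below the control, and both clone 2 libraries lay below those of clone 1. Pramel31 had 1.97 and 1.72 CPM in DKO clone 1 and 0.762 and 0.974 CPM in DKO clone 2, against 3.67 and 3.00 CPM in the control (log2 change -1.28, SE 0.330, adjusted p = 0.0374, 0.00779 to 0.279). The clones did not overlap for Pramel31, though their difference of -1.08 missed the threshold (adjusted p = 0.0502, 0.0121 to 0.238 over the alternatives). It passed with RLE scaling, limma-voom, no filter and the filter of 10 reads in 2 libraries. With either control library left out, the calls of Pramel20, Pramel16 and Pramel31 ended, and that of Pramel31 also ended with either clone 2 library left out.

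Pramel21 and Pramel11, near-identical over part of their transcripts, had few reads in DKO cells: 12, 2, 2 and 3 for Pramel21 and 10, 7, 6 and 4 for Pramel11. Pramel21 had 0.431 and 0.0718 CPM in DKO clone 1 and 0.0803 and 0.112 CPM in DKO clone 2, against 0.902 and 1.52 CPM in the control. Replicate 1 of clone 1 stood well above the other DKO libraries, whose values lay at or under the level of 3 reads. Pramel21 was tested only because its control libraries passed the filter on low counts, which limits what its change can show. The log2 change was -2.75 (SE 0.579, adjusted p = 0.0154, 0.00246 to 0.183), the largest of any member; it ranged from -3.71 without replicate 1 of clone 1 to -2.33 without control replicate 2. Pramel11 had 0.359 and 0.251 CPM in DKO clone 1 and 0.241 and 0.150 CPM in DKO clone 2, against 0.669 and 0.898 CPM in the control (log2 change -1.62, SE 0.431, adjusted p = 0.0429, 0.0356 to 0.278). Neither call held without a control library, and the Pramel11 call also ended without replicate 2 of clone 1 or either replicate of clone 2. Pramel1, a gene of the sperm acrosome in the mouse, had 4, 2, 8 and 6 reads in the DKO libraries and 13 and 18 in the control and was not called (log2 change -1.30, adjusted p = 0.195).

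Away from the large cluster, Pramel19 and Pramel17 lie side by side elsewhere on chromosome 4. Pramel19 had 3.59 and 2.76 CPM in DKO clone 1 and 2.61 and 2.21 CPM in DKO clone 2, against 8.73 and 6.97 CPM in the control. All DKO libraries were below 1/2 of the control mean, with a log2 change of -1.49 (SE 0.199, adjusted p = 0.00172, 3.2e-08 to 0.0523, not called without control replicate 1). Pramel17 had 18, 6, 13 and 10 reads in the DKO libraries and 19 and 30 in the control, and the groups overlapped in CPM (log2 change -0.75, adjusted p = 0.374).

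On chromosome 5 the 6 Pramel genes had a summed level of 6.06 and 5.35 CPM in DKO clone 1 and 3.89 and 3.49 CPM in DKO clone 2, against 10.3 and 12.0 CPM in the control. Clone 2 was the lowest group here, and DKO as a whole was at 42.2% of the control. Pramel50 had 2.08 and 1.58 CPM in DKO clone 1 and 1.20 and 1.12 CPM in DKO clone 2, against 4.13 and 5.11 CPM in the control (log2 change -1.62, SE 0.253, adjusted p = 0.00350, 5.5e-06 to 0.0729, not called without control replicate 2). Pramel39 had 3.52 and 3.30 CPM in DKO clone 1 and 2.49 and 2.06 CPM in DKO clone 2, against 5.30 and 6.63 CPM in the control (log2 change -1.06, SE 0.224, adjusted p = 0.0153, 8.5e-04 to 0.194, ended with either control library left out). Their promoter windows were 99.3% identical, and nearly every stretch of their transcripts also occurs in another annotated gene, so the level of each copy is uncertain. Pramel42, the third described gene there, was not called (log2 change 0.07, adjusted p = 0.967). Pramel3, on the X chromosome and known from germ cells, had 1, 6, 6 and 12 reads in the DKO libraries and 17 and 28 in the control (log2 change -1.52, adjusted p = 0.162).

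Each clone was also set against the control on its own; the clones share the control libraries, so their results are not independent. In clone 1, 16 members fell and none rose, against 6.47% of all genes tested that fell, with a median log2 change of -1.01 over the members and -0.0055 over all genes. In clone 2, 14 fell and none rose, against a background of 7.08%, with medians of -1.31 and -0.00091. The same 13 members fell in the fit over both clones and in each clone; Obox6, Pramel3 and Pramel6 were called in clone 1 and not in clone 2, and Pramel11 in clone 2 and not in clone 1. Of these 4, Obox6 alone also differed between the clones (adjusted p = 0.348 for Pramel3, 0.0835 for Pramel6 and 0.644 for Pramel11). The clone 1 call of Obox6 ended without control replicate 1, without replicate 2 of clone 1 and with either clone 2 library left out. The clone 1 call of Pramel3 ended with either control library or replicate 1 of clone 1 left out, and the clone 2 call of Pramel11 with either control library or either clone 2 library left out. DESeq2 gave no adjusted p for Pramel3 or Pramel11. Among the members that fell in a clone, Pramel3, Pramel11 and Pramel21 had passed the filter on low counts only through their control libraries. Leaving out 1 library gave 9 to 15 members in clone 1, with 9 without its own replicate 2 and 10 without control replicate 2, and 12 to 14 in clone 2. Between the clones, 2 members differed, Obox6 and Pramel13, both higher in clone 2, against 6.30% of all genes that differed in either direction. Of the 20 members, 12 had a lower mean in clone 2 than in clone 1. The share of all genes that did is not given here, so this is a description only. The median log2 difference was -0.34 over the members and 0.0026 over all genes tested. That count of 2 was 0 with replicate 2 of clone 1 or either replicate of clone 2 left out, 1 without replicate 1 of clone 1, and 5 with no filter on low counts.

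**Figure D4:**
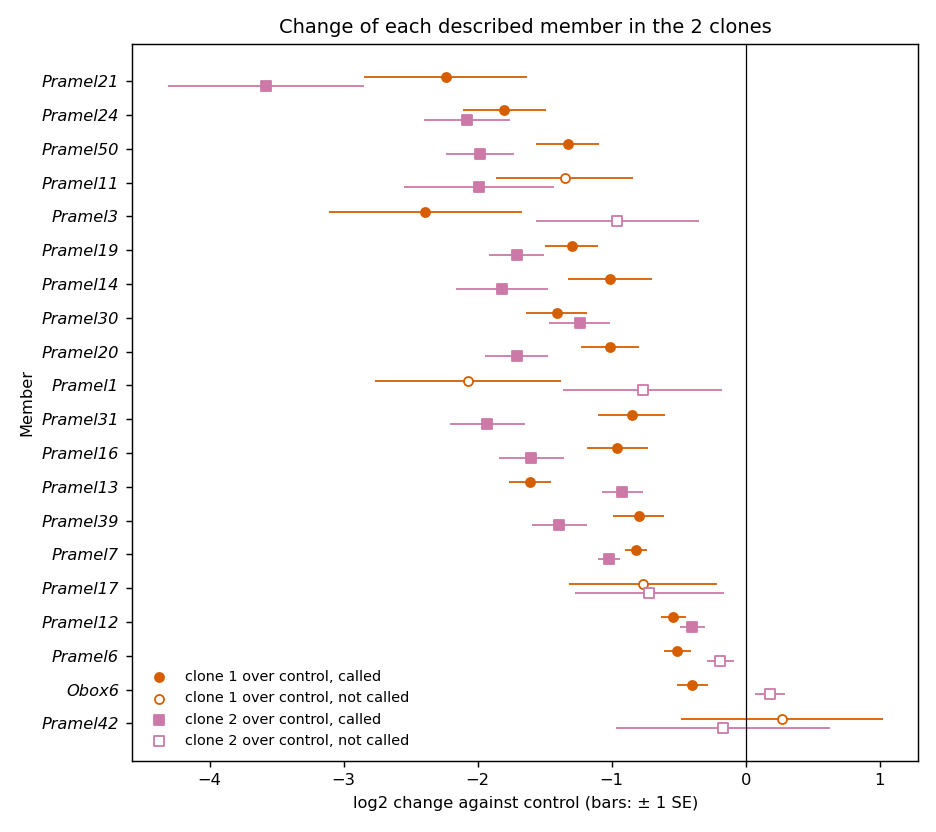
Log2 change of each described member (y axis, by name) in DKO clone 1 and in DKO clone 2 against the control; bars are 1 SE, and filled symbols are called. Pramel13, Obox6 and Pramel6 have the clone 2 symbol on the right of clone 1, while Pramel31, Pramel14 and Pramel20 have it on the left.

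The 4 members at 5 RPKM or more had log2 changes between -0.91 and -0.08, and 2 of them fell. The 16 members under 5 RPKM had log2 changes between -2.75 and 0.07, and 12 fell. These strata were drawn with the values in view and carry no test.

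Genes inside the clusters with other symbols were compared as neighbours. They are not independent of the members: Gm13057 and Gm13043 share 50-base windows with Pramel16, Pramel20 and Pramel31, and Gm16513 with Pramel42, so reads may be split between them. In the chromosome 4 cluster, 2 of 6 other genes were tested and both fell. They were Gm13057, with a log2 change of -1.61 (adjusted p = 0.00120 by the edgeR test), and Gm13043 with -1.48 (adjusted p = 0.00529, ended with either control library left out). In GENCODE gene models Gm13057 overlaps Pramel20 on the same strand. Their RefSeq spans, 143551700 to 143558236 and 143567467 to 143573798, do not overlap. In the chromosome 5 cluster AA792892 fell (-1.35, adjusted p = 0.0190, 0.00370 to 0.147, ended with either control library left out) and Gm16513 was not called (-1.70, adjusted p = 0.0715, 0.0394 to 0.35). Of 49 other genes within 500 kb of Pramel6 and Pramel7, mostly olfactory receptor genes, Olfr153 alone was expressed enough to test, and its log2 change was 0.26 (adjusted p = 0.764). The median log2 change of all genes on chromosomes 2, 4, 5, 7 and X lay between -0.049 and 0.002.

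Many members are near-copies, and how the authors counted reads that match several genes is not given in the sources used here. Stretches of 50 bases were therefore compared between all transcripts of the GENCODE annotation. Among the 20 described members, 6 shared under 10% of these windows with another gene, and 3 of them fell (Pramel7, Pramel12 and Pramel13). Of the 6 that shared 10 to under 50%, 5 fell, and of the 8 that shared 50% or more, 6 fell. Pramel7 shared 0.442% and Obox6 5.02% of windows, while Pramel14 and Pramel30 shared 73.5% and 73.8%, with each other, Pramel39 shared 97.1% and Pramel50 100%. The Pramel39 and Pramel50 windows come from transcripts of 1848 and 1897 bases, shorter than the deposited widths of 5539 and 5240 bases. A fall was thus called at every degree of sharing, but its size differed. The median log2 change was -0.69 under 10%, -1.56 at 10 to under 50% and -1.32 at 50% or more. The group under 10% also holds all 4 members at 5 RPKM or more. The part that sharing of reads had in the size of the changes was not tested.

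**Figure D5:**
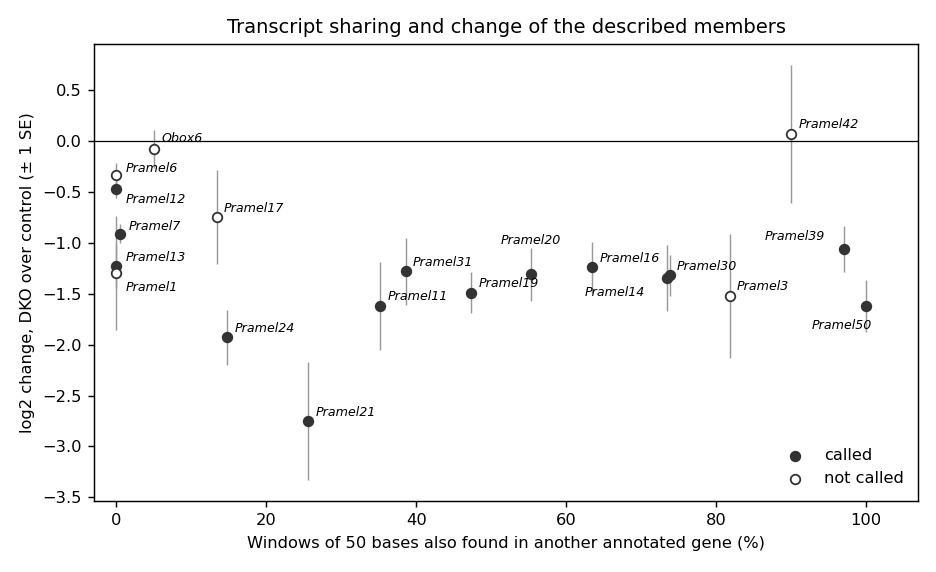
Percent of 50-base windows of each described member's transcript that also occur in another annotated gene (x axis) against the log2 change, DKO over control (y axis, bars 1 SE); filled points are called. Called members lie along the whole x axis, between Pramel13 with no shared window and Pramel50 at 100%.

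RefSeq promoter windows of 300 bases were found for 35 of the 42 members and for 17 of the 20 described ones, which leaves Obox6, Pramel12 and Pramel42 without one. The described members' windows held a median of 2 CpG dinucleotides, against 7 over all 32851 windows, and 14 of the 17 held 4 or fewer, as did 38.0% of all windows. Pramel1 with 20, Pramel3 with 9 and Pramel13 with 7 were the exceptions. Of the 14 members with CpG-poor windows 12 fell, and of the 3 others 1 fell. The median log2 changes were nevertheless close, at -1.32 and -1.3. Pramel1 and Pramel3, the CpG-richer members not called, had only 13 to 28 reads in a control library. A link of CpG content to the change was not tested. Motifs were searched on both strands. The CCAAT box (CCAAT) was in 9 of the 17 windows, or 52.9%, against 37.4% of all, and the TATA box (TATAAA) in 4, or 23.5%, against 13.6%. The windows with TATAAA were those of Pramel39 and Pramel50, 99.3% identical over the aligned bases, and of Pramel20 and Pramel31, 93.7% identical. Near-copies are counted separately in these shares and in the CpG counts, so the windows are not independent. The letters TAATCC, a core bound by some homeobox proteins, were in 2 windows, or 11.8%, against 7.06% of all. The E-box CACGTG, in 7.15% of all windows, and the letters TGCACAC, in 4.4%, were in none of the 17. These matches describe the windows and say nothing of binding.

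Other gene groups of the embryo and of the culture were set beside the families. Genes of the 2-cell embryo outside these families, which a small share of ES cells express, were lower: 12 of 24 tested fell and 1 rose, with a median log2 change of -1.22. The listed genes summed to 145 and 156 CPM in DKO clone 1 and 95.8 and 105 CPM in DKO clone 2. The control sums were 203 and 207 CPM, so both clones were lower in sum and clone 2 the lowest. Part of the gap between the clones came from Rpl39l, at 56.0 CPM in clone 1, 33.2 CPM in clone 2 and 20.9 CPM in the control. Ddit4l, not called in the fit over both clones, added to it (19.8, 11.3 and 17.4 CPM). The list's median log2 change was -1.02 in clone 1 and -1.57 in clone 2. Usp17lb, a deubiquitinase-like gene, averaged 1.17 ± 0.30 CPM in DKO cells and 5.85 ± 0.698 CPM in the control (SD, n = 4 and 2; adjusted p = 7.7e-04, 6.2e-13 to 0.0308). Zscan4a averaged 8.89 ± 1.48 CPM in DKO cells and 23.8 ± 0.260 CPM in the control (adjusted p = 7.7e-04, 5.2e-16 to 0.0308), and 10 and 11 of the list still fell without control replicate 1 and 2. The gene that rose, Rpl39l (44.6 ± 15.1 CPM in DKO, 20.9 ± 1.79 CPM in the control, adjusted p = 0.0232, 0.00180 to 0.223), was not called with either control library left out.

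Maternal and oocyte genes outside the families had a median change near 0. Of 17 tested, none fell by the edgeR test (5 at an unadjusted p under 0.05, 1 with DESeq2, 0 with limma-voom). The gene that rose was Kit, a receptor tyrosine kinase (235 ± 5.62 CPM in DKO cells, 189 ± 3.10 CPM in the control, SD, n = 4 and 2; adjusted p = 0.00921, 4.1e-04 to 0.108), and the median log2 change was -0.0286. Of 26 regulators of the 2-cell state and of embryonic genes, 1 fell, Dppa4 (log2 change -0.26, adjusted p = 0.0427, 0.0249 to 0.271), against 4 with DESeq2 and 2 with limma-voom, and the median was -0.0231. None of them rose by any of these tools, and 4 did at an unadjusted p under 0.05. Neither of the Kit and Dppa4 calls held with either control library left out.

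Markers of other cell types that such cultures can hold were counted in the same fit, where 3.62% of all genes fell and 5.06% rose. Primitive endoderm markers summed to 75.4 to 84.3 CPM in DKO libraries and 108 and 109 CPM in the control, with 2 of 11 tested that fell (Lamb1 and Col4a1). Sox17, another marker on the list and not among those called, was at 0.213 CPM in DKO cells and 0.587 CPM in the control, both low levels. Trophectoderm markers summed to 79.2 to 83.4 CPM in DKO libraries and 61.0 and 72.2 CPM in the control, with 1 of 8 that fell (Krt8) and 1 that rose (Gata3). Fibroblast markers, as of feeder cells, summed to 641 and 708 CPM in DKO clone 1 and 457 and 477 CPM in DKO clone 2, against 489 and 535 CPM in the control; 2 of 8 fell (Acta2 and Twist1) and 1 rose (Fbln2). Of the 12 ES cell markers 0 fell at any p under 0.05 and 1 rose, Nanog (625 ± 49.8 CPM in DKO cells, 497 ± 1.70 CPM in the control, SD, n = 4 and 2; adjusted p = 0.0281, 0.00352 to 0.191). Of these marker calls, Fbln2 alone was kept in 1 of the fits with a control library left out. The part of these markers in the lower levels of the Pramel genes was not tested.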

How the data were processed

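RNA was measured in 6 ES cell libraries, 2 from each of 3 clones, made with the ScriptSeq v2 kit after DNase treatment, per the labels' protocols. The table deposited by the authors gives whole-number read counts for each Entrez ID, next to a width of the gene. Reads were aligned by the authors with STAR 2.5.0a to mm10 (GRCm38), per the submitters' processing notes. For the counting tool, annotation release, counted strand and reads that match several genes, the setting is not given in the sources used here.

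Symbols were matched by Entrez ID for 24437 of 24467 rows, and the 30 unmatched rows held 0.389 to 1.62% of a library's reads. Totals were 24628872 to 34641560 reads per library. The edgeR package 4.0.16 (R 4.3.3) was used on the counts: filterByExpr left 14771 genes (about 0.359 CPM in 2 libraries), TMM factors were 0.992 to 1.01, and the two-sided quasi-likelihood F test was used with Benjamini-Hochberg adjustment over all genes tested and a threshold of 0.05. DKO against control used genotype as the only term; clone contrasts used the 3 clones as groups. CPM values are TMM-scaled, RPKM divides them by the deposited width, and sums carry no test. On simulated data for DKO against control over 14771 genes, the test called 73.8% of genes changed 1.5-fold, 83.8% of those changed 2-fold and 87.5% of those changed 3-fold, and 6.9% of calls were false. Both simulated DKO clones had the same means, and the simulated spread was that within clones. The real fit also holds the spread between clones, so these rates may not apply to it.

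Replicates differed by more than sampling noise, with a chi-square of 11.5 and 12.1 a gene between those of clones 1 and 2 and 41.6 in the control, where a split library gives 1. Members with per-library values and a test were the 16 called in DKO against control or among the 6 most abundant per length; other members are given by counts and ranges, or by their reads where they are exceptions, which were chosen after their values were seen. In other lists, up to 4 genes with the smallest adjusted p, the exceptions of a list, Uhrf1 and Sox17 are named; 1 list is not reported here. The members, lists and tests were chosen with earlier results of these data known. Alternatives were RLE or library-size scaling, other filters, DESeq2 1.42.0, limma-voom (limma 3.58.1), the replicate number as a block and each library left out. Promoters came from RefSeq (GRCm38.p6), and transcript windows of 50 bases from the GENCODE transcripts of the same build.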

Additional observations from a re-analysis of the deposited data

Results flagged for a closer look

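Obox6 differed between the DKO clones: it had 24.1 and 25.8 CPM in clone 2 and 17.9 and 15.5 CPM in clone 1, a log2 difference of 0.58 by the edgeR quasi-likelihood test of clone 2 against clone 1 (adjusted p = 0.0118, 1.5e-04 to 0.112 over the alternatives). Since the clones share their control, this difference equals that between their effects.

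Pramel13 differed in the same test, with 4.90 and 5.32 CPM in clone 2 and 3.16 and 3.16 CPM in clone 1, a log2 difference of 0.69 (adjusted p = 0.0286, 0.00745 to 0.180 over the alternatives). It fell against the control in both clones.

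Pramel21 in replicate 1 of DKO clone 1 was at 0.431 CPM, far above the other 3 DKO libraries at 0.0718 to 0.112 CPM. The gap took 0.887 of the range of the 4 libraries. Chance flags about 1 in 20 groups of samples in this way, and 16 members were examined, at read counts close to the limit of detection.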

How the results depend on the processing

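The replicate numbers of the labels did not pair the libraries (correlations of 0.028, -0.083 and 0.026 between groups). With the replicate block, 12 members were called in DKO against control, 16 in clone 1, 14 in clone 2 and 2 between the clones; Pramel11 (adjusted p = 0.0770) and Pramel31 (0.0723) lost their calls. Scaling, filters, limma-voom and DESeq2 left 13 or 14 members called in DKO against control; DESeq2 gave Pramel11 no adjusted p. Leaving out 1 library gave 3 to 14 members in DKO against control, 9 to 15 in clone 1, 12 to 14 in clone 2 and 0 to 2 between the clones, where no filter on low counts gave 5. Family ratios of DKO over control ranged 0.575 to 0.585 for Pramel and 0.869 to 1.03 for Obox when 1 library was left out, and were 0.604 and 0.643 without Pramel7 and Obox6. Obox6 ranged from -0.20 to 0.04 with 1 library left out, at 0.04 without replicate 2 of clone 1 and at 0.04 without control replicate 1; every other named member kept its direction in all of its alternatives, 14 each and 13 for Pramel11. Calls over all genes in DKO against control numbered 1283, and 928 with the block. The cause was not tested, beyond the smaller number of libraries in the fits that leave 1 out. Depth limits the members under about 1 CPM, where 3 reads are 0.0866 to 0.122 CPM.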
